A study of Mus musculus with 29 samples.

Results

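The TAM receptors Tyro3, Axl and Mertk and their ligands Gas6 and Pros1 were followed through 29 RNA-seq libraries of ribosome-bound RNA from mouse cortex. The members were taken by gene symbol, and all 5 were found among the 22327 symbols of the deposited count table. All 5 also passed the low-count filter that left 16074 genes for testing. Among the groups without the iPKR construct, Axl was the receptor with the widest range of levels, from 13.5 to 821.8 CPM (counts scaled to library size), whereas Mertk stayed between 179 and 311.9 CPM.

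TAM receptors are receptor tyrosine kinases on phagocytes. Gas6 and protein S (Pros1) bind phosphatidylserine, a lipid displayed by dying cells, and bridge it to the receptor, which starts engulfment and dampens inflammatory signalling. Protein S activates Tyro3 and Mertk, and Gas6 binds all members of the family, with Axl as its highest-affinity partner. In brain, Mertk is a feature of resting microglia, Axl is induced in microglia around amyloid plaques, and Tyro3 is chiefly a neuronal receptor.

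The libraries came from cortices of mice aged 6 months, all heterozygous for Cx3cr1CreErt2 and given 6 gavages of 100 mg/kg tamoxifen, which switches on an eGFP-L10a ribosomal tag so that tagged ribosomes can be pulled down with a GFP antibody. The TRAP group (n = 5) was Cx3cr1CreErt2/+;Eef1a1LSL.eGFPL10a/+ with tamoxifen alone, and the 5xFAD TRAP group (n = 4) added the 5xFAD transgenes, a model of amyloid plaques, and received VEGF and ASV. The Eif2A group (n = 4) was homozygous for Eif2s1A, whose product cannot be phosphorylated, with a Tg(Eif2s1) transgene and the same tag by the sample labels, and the 5xFAD Eif2A group (n = 3) added 5xFAD. Neither Eif2A group received VEGF or ASV, and the tag is missing from both of their genotypes as the series text gives them. The 3 iPKR groups carried Eef1a1LSL.NS3.eGFPL10a.iPKR, in which the tag is joined to NS3 and to an inducible form of PKR, a kinase of eIF2α. The iPKR vehicle group (n = 4) received 1 µg/kg VEGF and the PEG:DMSO carrier, and the iPKR ASV (n = 5) and 5xFAD iPKR (n = 4) groups received VEGF and 5 mg/kg ASV, over 4 weeks. Cx3cr1 is also expressed by macrophages at the borders of the brain, so the driver is not restricted to microglia. The Eif2A change is in the protein sequence, and counts per gene do not check it.

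Total counts ran from 1.662 to 31.998 M per library, and each member had at least 23 counts in every library. Homeostatic microglial markers (15 genes) took 1.40% to 2.03% of counts in the 16 libraries without the iPKR construct, and 0.182% to 0.731% in the 13 libraries with it. Neuron markers (11 genes) took 0.0587% to 0.422% and 0.504% to 3.65%, so that the labelled cell type, microglia, was well represented in the former and poorly in the latter. In the groups with the construct 3 libraries stood apart with the most neuron marker counts: 5xFAD iPKR replicates 1 and 2 at 3.20% and 3.65%, and iPKR ASV replicate 3 at 2.35%. Y-linked reads went against the labelled sex in 8 of the 29 libraries, 2 of them Eif2A, 4 iPKR ASV and 2 5xFAD iPKR, so the labels of single replicates in these groups, batch included, could not be relied on. With sex taken from the Y-linked reads the same members passed the test in each comparison. In bulk RNA, fewer cells of a type and less RNA per cell cannot be told apart.

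The receptor genes are related, and short reads could in principle be assigned to the wrong member. The stretch below encodes a motif in the kinase domain and is shown as the one by which the family is recognised. It is printed 5′ to 3′ from the annotated transcripts (GENCODE M21, mm10), with capitals at the 6 of 21 positions where the receptors differ.
Axl: aagtggAtTgcTAtTgagagT
Mertk: aagtggAtCgcCAtCgagagC
Tyro3: aagtggCtGgcCCtGgagagC
No run of 31 bases was shared between any pair of the 5 genes' protein-coding transcripts, in either orientation. This covers exact matches among these transcripts only. Matches to other genes or to introns, and reads placed with mismatches, were not checked.

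In mm10, Axl lies at chr7:25757273-25788705 on the minus strand, Mertk at chr2:128698956-128802894 and Tyro3 at chr2:119797733-119818104, both on the plus strand. Gas6 lies at chr8:13465374-13494490 on the minus strand, and Pros1 at chr16:62854307-62929346 on the plus strand. Gas6 overlaps Tmem255b on the opposite strand; whether counting used strand is not given in the sources used here, so reads of these genes where they overlap may not be separated.

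The 250 bases before the start of Axl and of Mertk are shown because Axl was called in each 5xFAD comparison and Mertk in none. They are from the RefSeq promoter table (GRCm38.p6, the same assembly as mm10), each on its gene's own strand, chr7:25788734-25788983 (minus) for Axl and chr2:128698665-128698914 (plus) for Mertk. Capitals mark GC boxes, GGGCGG on either strand.
Axl: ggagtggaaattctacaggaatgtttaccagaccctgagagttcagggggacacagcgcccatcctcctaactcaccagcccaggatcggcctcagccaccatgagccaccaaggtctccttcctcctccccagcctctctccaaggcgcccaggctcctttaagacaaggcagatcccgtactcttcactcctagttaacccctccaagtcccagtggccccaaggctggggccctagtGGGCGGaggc
Mertk: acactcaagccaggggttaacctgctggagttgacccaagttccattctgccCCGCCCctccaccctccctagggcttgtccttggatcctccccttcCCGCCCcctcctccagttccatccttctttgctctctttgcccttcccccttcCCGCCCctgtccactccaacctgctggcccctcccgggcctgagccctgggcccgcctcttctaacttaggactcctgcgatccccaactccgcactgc
The Axl window held 1 GC box and the Mertk window 3, and 32.7% of 32851 promoters of the same length held at least 1. The core bound by PU.1, a macrophage transcription factor, was searched as GAGGAA and occurred once in the Axl window and not in that of Mertk, with 23.3% of promoters holding it. Neither window held the interferon response element, searched as GAAA and GAAA with any 2 bases between them (2.98% of promoters), the STAT site TTCNNNGAA (7.02%), the AP-1 site TGANTCA (6.75%), the E-box CACGTG (6.02%) or the ATF4 composite element TGATGCAA (0.791%). All searches covered both strands, and a match is a description of the letters only.

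Axl rose in 5xFAD mice on all 3 backgrounds. CPM here are scaled with TMM factors, which correct for RNA composition. In TRAP mice without 5xFAD, Axl stood at 31.2, 131.9, 29.2, 18.9 and 59.6 CPM (mean 54.2 ± 46.0, SD, n = 5), and in 5xFAD TRAP mice at 376.4, 372.6, 223.5 and 297.1 CPM (317.4 ± 72.5, SD, n = 4). The groups did not overlap, as for 5.35% of all genes, although TRAP replicate 2 was more than 4 times the group median of 31.2 CPM. The fitted difference was a log2 fold change of 2.51 ± 0.45 (SE), a 5.71-fold rise (adjusted p = 0.002711, edgeR's quasi-likelihood test with Benjamini-Hochberg adjustment over all 16074 genes, as for every adjusted p below unless another tool is named). Axl was the 1 member of 5 called, where 0.79% of all genes were.

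In TRAP replicate 2 the disease-associated microglial markers (18 genes) took 1.04% of counts, the median of the TRAP group. Its border macrophage markers (9 genes) took 0.00974%, against 0.0251% to 0.0445% in the other TRAP libraries, and their part in its Axl level was not tested. Without this library the 5xFAD difference in Axl was 3.23 ± 0.42 on the log2 scale (adjusted p = 7.76e-05). Within batch 1 it was 2.79 ± 0.57 (adjusted p = 0.01807), and within batch 2, which holds 1 TRAP library, 1.76 ± 0.40 (adjusted p = 0.4875). With only the 9 libraries of these 2 groups fitted, it was 2.37 ± 0.67 and did not pass (adjusted p = 0.1157). VEGF and ASV were given to the 5xFAD TRAP group but not to its controls, so treatment and 5xFAD cannot be told apart here.

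In the Eif2A groups, where no mouse had ASV, the contrast was larger in size. Axl stood at 13.5, 17.9, 34.5 and 41.5 CPM in Eif2A mice (26.9 ± 13.3, SD, n = 4) and at 437.3, 570.4 and 821.8 CPM in 5xFAD Eif2A mice (609.9 ± 195, SD, n = 3). All libraries with 5xFAD were above all those without it, where 21.1% of all genes did not overlap between these groups. The log2 fold change was 4.45 ± 0.54 (21.9-fold, adjusted p = 6.073e-06), and it held between 4.2 and 4.78 when each library was left out in turn. Axl was again the 1 member called, against 3.10% of all genes.

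Among iPKR mice that all had VEGF and ASV, Axl stood at 12.3, 14.7, 32.1, 20.3 and 12.3 CPM without 5xFAD (18.3 ± 8.37, SD, n = 5). With 5xFAD the values were 135.2, 98.3, 83.7 and 125.2 CPM (110.6 ± 23.8, SD, n = 4). These groups did not overlap either, as for 2.46% of all genes, and the log2 fold change was 2.63 ± 0.46 (6.18-fold, adjusted p = 0.001362). The size was 2.60 ± 0.66 within batch 1 and 2.99 ± 0.34 within batch 2, and 2.99 ± 0.55 without the 3 libraries rich in neuron markers.

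The 5xFAD effect on Axl was 1.94 ± 0.66 larger on the log2 scale in Eif2A than in TRAP mice (95% interval 0.60 to 3.29). This difference of effects had an unadjusted p of 0.006344 and did not pass after adjustment over all genes (adjusted p = 1, edgeR), and no other member had an unadjusted p under 0.05. Of all genes 0.00622% were called in it, and without TRAP replicate 2 the Axl value fell to 1.28 ± 0.56. The effect in iPKR mice differed from that in TRAP mice by 0.11 ± 0.63 (95% interval -1.18 to 1.41, adjusted p = 0.9974), with 0.0373% of all genes called, and it turned to -0.68 ± 0.56 without TRAP replicate 2. With batch 2 alone, which holds 1 TRAP library, it was 1.23 ± 0.53. The interval over all libraries is wide enough to hold a difference of more than 1 log2 unit either way. In these differences of effects no member was called by edgeR, DESeq2 or limma-voom. In both, VEGF and ASV were given to the 5xFAD TRAP mice and not to the TRAP mice. Within the Eif2A pair and the iPKR pair treatment did not differ, so background and treatment cannot be told apart.

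**Figure D1:**
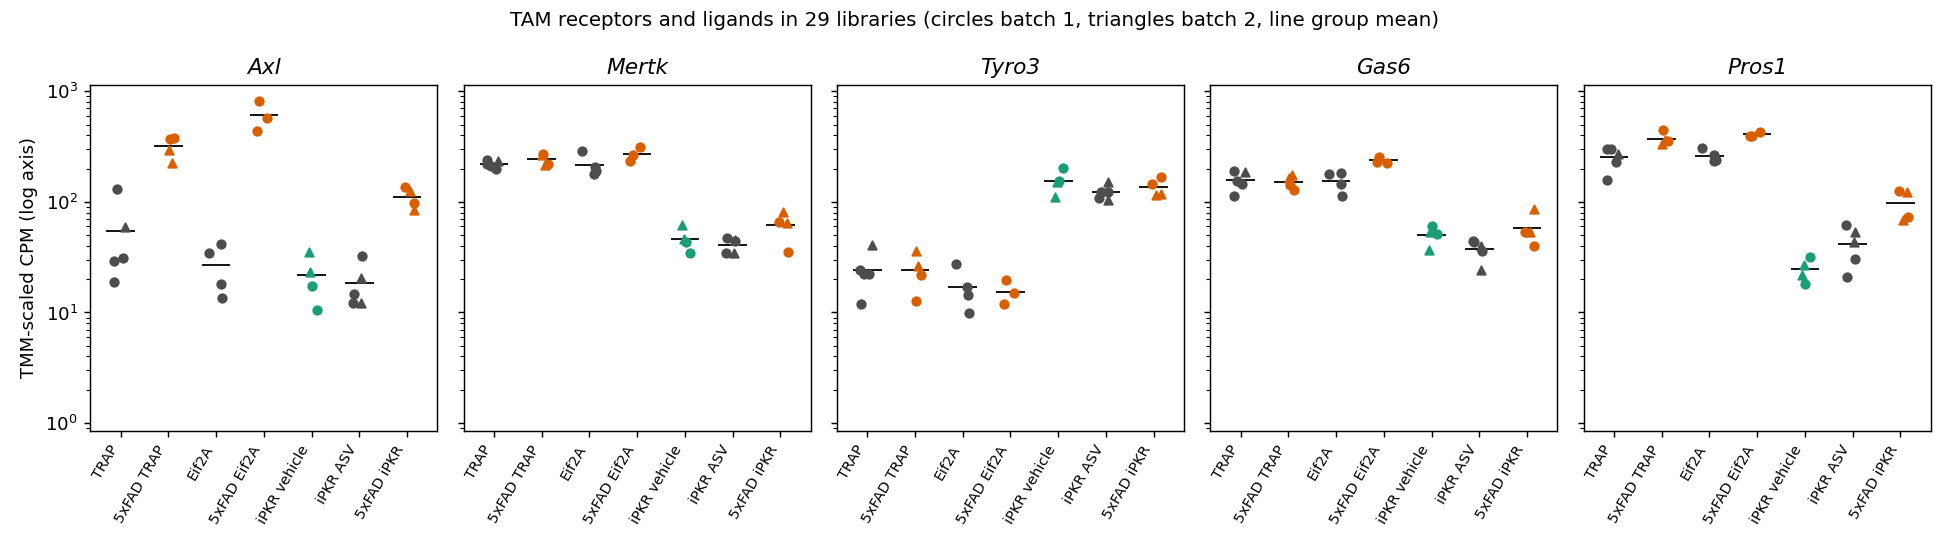
TMM-scaled CPM of the 5 members in each library (log axis), by group, with circles for batch 1, triangles for batch 2 and a line at the group mean; orange marks 5xFAD groups and green the vehicle group. Axl separates 5xFAD libraries from their controls on every background, with 5xFAD Eif2A at 437.3 to 821.8 CPM and TRAP at 18.9 to 131.9 CPM, and Tyro3 separates the iPKR groups from the others.

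Mertk, an engulfment receptor of resting microglia, did not pass the test in any 5xFAD comparison. It stood at 199.4, 209.3, 221.8, 237.5 and 232.5 CPM in TRAP (220.1 ± 15.8, SD, n = 5) and at 220.6, 269.6, 213.7 and 263.5 CPM in 5xFAD TRAP mice (241.8 ± 28.7, SD, n = 4). These ranges overlapped, and the log2 fold change of 0.06 ± 0.21 had a 95% interval from -0.36 to 0.48 (adjusted p = 0.9624). In Eif2A mice it stood at 191.6, 179, 290.5 and 207 CPM, and in 5xFAD Eif2A mice at 234.5, 311.9 and 265 CPM, a log2 fold change of 0.30 ± 0.23 (95% interval -0.16 to 0.76, adjusted p = 0.6021). A rise in Mertk of the size seen in Axl lies outside both intervals. The direction in TRAP mice was not settled, at 0.16 ± 0.25 within batch 1 and -0.22 ± 0.35 within batch 2.

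In iPKR mice with ASV, Mertk stood at 34.6, 47.0, 44.2, 45.0 and 34.6 CPM without 5xFAD and at 66.4, 34.9, 63.7 and 80.4 CPM with it. The groups overlapped only through 5xFAD iPKR replicate 2, the library with the most neuron marker counts, and the log2 fold change of 0.58 ± 0.21 did not pass (adjusted p = 0.1784). Without that library it was 0.82 ± 0.20 (adjusted p = 0.01608), and without all 3 libraries rich in neuron markers 0.91 ± 0.22 (adjusted p = 0.01255). Within batches it was 0.30 ± 0.28 (batch 1) and 1.03 ± 0.30 (batch 2), neither of which passed. Summed homeostatic markers were also higher in 5xFAD iPKR (0.235% to 0.731% of counts) than in iPKR ASV libraries (0.182% to 0.360%), and their part in the Mertk values was not tested. Relative to the summed counts of these markers, the log2 level of Mertk was -5.67 ± 0.42 in iPKR ASV and -6.19 ± 0.27 in 5xFAD iPKR (SD), the opposite direction to its CPM.

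Tyro3, the receptor chiefly expressed by neurons, was low in the groups without the iPKR construct. It stood at 22.2, 22.5, 11.9, 24.1 and 40.4 CPM in TRAP and at 21.7, 12.6, 26.4 and 36.0 CPM in 5xFAD TRAP mice. Eif2A libraries held 9.90 to 27.4 CPM and 5xFAD Eif2A libraries 11.9 to 19.5 CPM. All of these ranges overlapped, and Tyro3 passed the test in none of the 3 comparisons with 5xFAD, the 2 with Eif2A or the comparison of ASV with vehicle.

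Gas6, the ligand of all the receptors in the family, had the same mean level in TRAP mice with and without 5xFAD within its error. It stood at 143.9, 154.3, 188.2, 111.8 and 186 CPM in TRAP (156.8 ± 31.8, SD, n = 5) and at 127.8, 143, 175.9 and 162.8 CPM in 5xFAD TRAP mice (152.4 ± 21.2, SD, n = 4). The fitted difference was a log2 value of 0.00 ± 0.23 (95% interval -0.48 to 0.48, adjusted p = 1). Within batches 1 and 2 it was -0.15 ± 0.24 and 0.03 ± 0.41.

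In 5xFAD Eif2A mice Gas6 stood at 231.4, 224.7 and 255.7 CPM (237.3 ± 16.3, SD, n = 3), above every other library of the series. Eif2A mice had 113.6, 144.5, 177.1 and 182 CPM, and the log2 fold change between these groups was 0.65 ± 0.24 (adjusted p = 0.1679). The groups did not overlap, as for 21.1% of all genes in this comparison of 3 with 4 libraries, and the difference did not pass the test. It passed with the iPKR groups left out of the fit (0.62 ± 0.16, adjusted p = 0.014). Against 5xFAD TRAP the same 3 libraries were also all higher, with a log2 fold change of 0.62 ± 0.26 (adjusted p = 0.3721), where 13% of all genes did not overlap. With the iPKR groups left out this too passed (0.77 ± 0.19, adjusted p = 0.02637). The 5xFAD TRAP mice in it had VEGF and ASV and the 5xFAD Eif2A mice did not, and genotype and treatment cannot be told apart there.

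Pros1 encodes the plasma protein that is also an anticoagulant cofactor. In TMM-scaled CPM it did not overlap between 5xFAD libraries and the controls of the same background. The same held for 5.35%, 21.1% and 2.46% of all genes in TRAP, Eif2A and iPKR ASV mice. Per library total the iPKR pair overlapped. The difference in Pros1 passed the test in iPKR ASV mice only. It stood at 230.9, 299.8, 302, 158.1 and 271.9 CPM in TRAP (252.6 ± 60.1, SD, n = 5) and at 351.1, 443.8, 363.2 and 330 CPM in 5xFAD TRAP mice (372 ± 49.8, SD, n = 4). The log2 fold change of 0.55 ± 0.26 did not pass (adjusted p = 0.4829), although the groups did not overlap, and was 0.67 ± 0.35 within batch 1 and 0.29 ± 0.41 within batch 2. In Eif2A mice it stood at 237.3, 264.3, 306.2 and 236.1 CPM, and with 5xFAD at 396.6, 429.4 and 392.5 CPM. There the log2 fold change of 0.64 ± 0.29 did not pass either (adjusted p = 0.2912), but did with the iPKR groups left out (0.63 ± 0.18, adjusted p = 0.02081).

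Among iPKR mice with ASV, Pros1 rose with 5xFAD and passed the test. It stood at 61.8, 20.95, 30.3, 53.4 and 43.0 CPM in iPKR ASV (41.9 ± 16.6, SD, n = 5) and at 126.4, 73.4, 123 and 68.8 CPM in 5xFAD iPKR mice (97.9 ± 31, SD, n = 4). In TMM-scaled CPM the groups did not overlap, as for 2.46% of all genes, and the log2 fold change was 1.22 ± 0.27 (2.33-fold, adjusted p = 0.01481). Per library total, without TMM factors, they overlapped. There iPKR ASV replicate 1 was at 80.55 CPM, above 5xFAD iPKR replicates 2 (74.59 CPM) and 4 (79.62 CPM). Axl and Pros1 were therefore the 2 members called in this comparison, where 1.72% of all genes were. The call on Pros1 ended without 5xFAD iPKR replicate 1 (1.06 ± 0.28, adjusted p = 0.06561), without replicate 3 (1.09 ± 0.29, adjusted p = 0.06766) and without the 3 libraries rich in neuron markers (1.10 ± 0.32, adjusted p = 0.05131). It was 1.45 ± 0.39 within batch 1 (adjusted p = 0.04887) and 0.96 ± 0.36 within batch 2 (adjusted p = 0.3351). Homeostatic markers were higher in the same comparison, with 4 of 15 called higher and a median log2 fold change of 1.06, and their part in the Pros1 difference was not tested. Relative to their summed counts, the log2 level of Pros1 was -5.74 ± 0.77 in iPKR ASV and -5.51 ± 0.56 in 5xFAD iPKR (SD), a gap smaller than either spread. Gas6 in the same comparison overlapped between groups, and its log2 fold change of 0.58 ± 0.23 did not pass (adjusted p = 0.2293), at 0.20 ± 0.26 within batch 1 and 0.93 ± 0.34 within batch 2.

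The 5 members had a median log2 fold change with 5xFAD of 0.06 in TRAP, 0.64 in Eif2A and 0.58 in iPKR ASV mice, where the median over all tested genes was -0.06, -0.06 and 0.00. Of the 18 disease-associated microglial markers, 16, 17 and 14 were called higher and 0 lower in the same comparisons. Their medians were 3.02, 3.39 and 2.42. They took 2.43% to 3.37% of counts in 5xFAD TRAP and 4.02% to 4.47% in 5xFAD Eif2A libraries, and their part in the Axl differences was not tested.

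**Figure D2:**
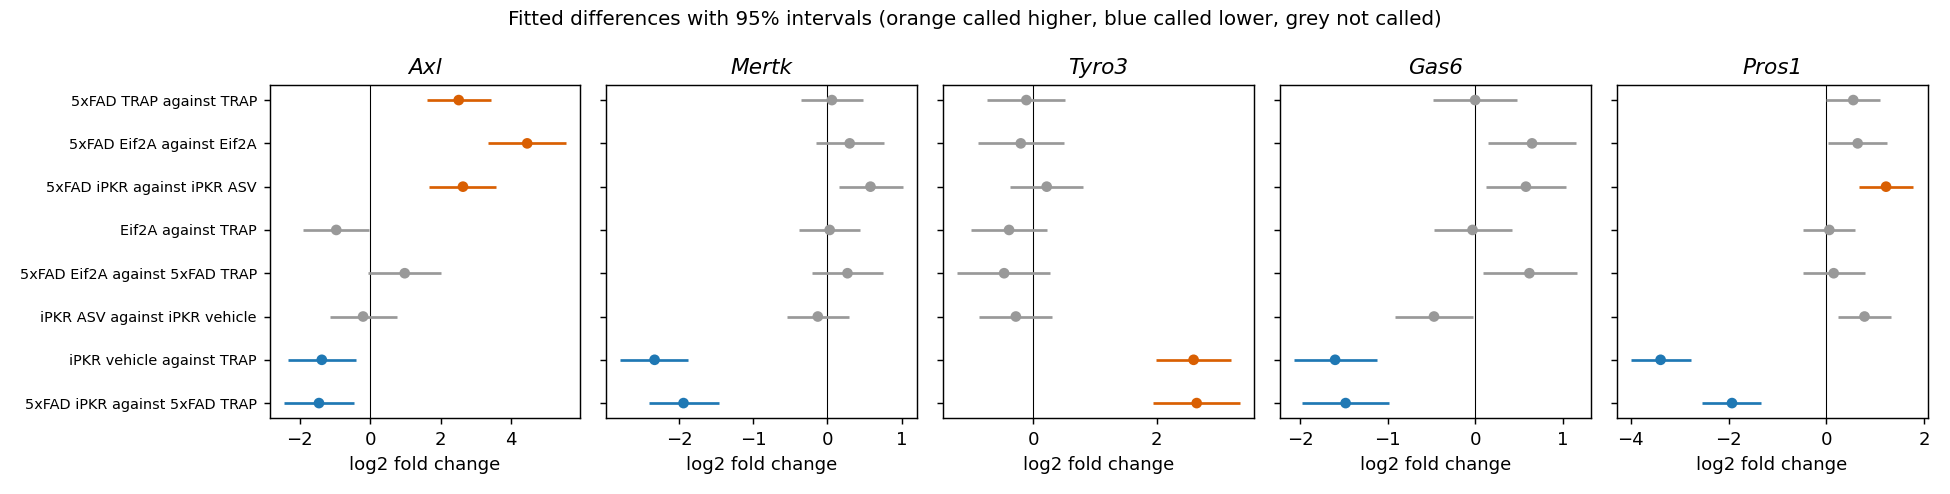
Log2 fold change of each member in the 8 pairwise comparisons, with 95% intervals from the edgeR fit; orange points were called higher, blue points called lower and grey points not called, and each panel has its own horizontal scale. Axl is called in each 5xFAD comparison (2.51, 4.45 and 2.63), whereas the intervals of Mertk and Gas6 in 5xFAD TRAP against TRAP run from -0.36 to 0.48 and from -0.48 to 0.48.

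The Eif2A genotype alone gave no call for any member, and edgeR called 0% of all genes in Eif2A against TRAP (912 of 16074 had an unadjusted p under 0.05, and 1 of the 5 members did). DESeq2 called 41 genes there, limma-voom 0, and edgeR without the iPKR groups 272, none of them a member. Axl was lower in size in Eif2A mice, at a log2 fold change of -0.96 ± 0.45 (adjusted p = 0.866), but the ranges overlapped. Without TRAP replicate 2 the value was -0.27 ± 0.39, so that most of the size went with this library. Between 5xFAD Eif2A and 5xFAD TRAP, only the latter had VEGF and ASV, so genotype and treatment cannot be told apart. Among these mice, TMM-scaled CPM of Axl were higher in all 3 Eif2A libraries than in all 4 TRAP libraries. On that scale 13% of all genes did not overlap. Per library total, without TMM factors, the groups overlapped in Axl. There 5xFAD Eif2A replicate 1 was at 339.7 CPM and 5xFAD TRAP replicate 1 at 347.8 CPM. The log2 fold change of 0.98 ± 0.50 did not pass (adjusted p = 0.5011), and 0.168% of all genes were called. Both Eif2A groups lie wholly in batch 1, and within it Axl was at -0.96 ± 0.51 in the first of these comparisons and 0.71 ± 0.64 in the second. DESeq2 and limma-voom likewise called no member in either comparison, and 1 of the 5 members, Gas6, had an unadjusted p under 0.05 in the second. With only the 7 libraries of the latter comparison fitted, Axl (0.83 ± 0.16, adjusted p = 0.007698) and Gas6 (0.77 ± 0.13, adjusted p = 0.004666) both passed.

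ASV against vehicle in iPKR mice changed no member by the test, with 0.423% of all genes called. Pros1 stood at 31.5, 18.0, 21.9 and 26.7 CPM with vehicle and at 20.95 to 61.8 CPM with ASV, a log2 fold change of 0.78 ± 0.27 (adjusted p = 0.1605) between groups that overlapped. Gas6 stood at 50.8, 60.4, 36.6 and 53.2 CPM with vehicle and at 43.8, 43.6, 35.6, 24.01 and 39.5 CPM with ASV, a log2 fold change of -0.47 ± 0.22 (adjusted p = 0.2855). These were the 2 members with an unadjusted p under 0.05, and DESeq2 and limma-voom called none. Within batches 1 and 2 Pros1 was at 0.60 ± 0.40 and 0.95 ± 0.33, and Gas6 at -0.47 ± 0.25 and -0.56 ± 0.32.

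The groups with the iPKR construct had a different make-up of the family. Between iPKR vehicle and TRAP, only the former had VEGF and the PEG:DMSO carrier, so construct and treatment cannot be told apart there. Against TRAP, iPKR vehicle libraries were lower in Mertk, Gas6, Pros1 and Axl and higher in Tyro3, so that all 5 members were called, in a comparison where 54.1% of all genes were (28.6% higher and 25.4% lower). Pros1 fell by 3.39 ± 0.30 on the log2 scale (10.5-fold lower, adjusted p = 1.057e-09), from 158.1 to 302 CPM in TRAP to 18.0 to 31.5 CPM. Mertk, at 34.6, 43.3, 61.8 and 46.3 CPM with the construct, fell by 2.33 ± 0.22 (adjusted p = 2.903e-09), and Gas6 fell by 1.60 ± 0.23 (adjusted p = 1.611e-06). Tyro3 rose from 11.9 to 40.4 CPM to 204.2, 153.4, 109.7 and 151.5 CPM, a log2 fold change of 2.60 ± 0.30 (6.07-fold, adjusted p = 4.931e-08). In these 4 genes the groups did not overlap, which held for 48.6% of all genes.

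Axl, at 10.6, 17.5, 35.1 and 23.2 CPM in iPKR vehicle mice, overlapped with TRAP. Its log2 fold change of -1.37 ± 0.47 passed (adjusted p = 0.01633), but not without TRAP replicate 2 (-0.69 ± 0.40, adjusted p = 0.1569), without iPKR vehicle replicate 1 (-1.10 ± 0.51, adjusted p = 0.07517) or without replicate 2 (-1.27 ± 0.54, adjusted p = 0.05453). Within batch 1, and within batch 2, the 5 differences from TRAP had the same direction and passed, but batch 2 holds 1 TRAP library, which the fit takes to vary like the other groups. The batch 1 and batch 2 values were -2.53 and -2.37 for Mertk, 2.99 and 1.72 for Tyro3, -1.47 and -1.92 for Gas6, -3.41 and -3.54 for Pros1 and -1.94 and -1.42 for Axl. The median over all genes moved by 0.17 in this comparison, small beside these values.

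The same 5 directions were found among 5xFAD mice that all had VEGF and ASV, in 5xFAD iPKR against 5xFAD TRAP, where 47.9% of all genes were called (25% higher and 23% lower). Tyro3 stood at 145.3, 168.7, 116.8 and 116.2 CPM with the construct and rose by 2.65 ± 0.34 on the log2 scale (adjusted p = 1.007e-06). Mertk fell by 1.94 ± 0.23 (adjusted p = 3.908e-07), Pros1 fell by 1.93 ± 0.30 (adjusted p = 7.816e-06), Gas6 fell by 1.48 ± 0.24 (adjusted p = 1.95e-05) and Axl fell by 1.45 ± 0.49 (adjusted p = 0.01607). None of the 5 overlapped between groups, as for 42.0% of all genes, and the median over all genes was 0.21. Here same-numbered libraries, which share the batch label, deviated together, and with replicate number as a block all 5 members were still called. Within batch 1 alone, Axl did not pass (-1.69 ± 0.74, adjusted p = 0.07392), and the other 4 passed in both batches, with Tyro3 at 3.42 ± 0.38 in batch 1 and 1.71 ± 0.36 in batch 2.

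Cell type markers also differed between iPKR vehicle and TRAP libraries. Of the homeostatic microglial markers tested, 14 of 15 were called lower in iPKR vehicle than in TRAP libraries (median log2 fold change -4.06), and all 11 neuron markers were called higher (median 2.68). Of the other marker lists, 8 of 9 astrocyte, 7 of 10 oligodendrocyte and 4 of 5 oligodendrocyte precursor genes were called higher. Border macrophage markers were called lower in 8 of 9, and no marker of these lists was at 0 in every library of either group. Whether the members' differences between constructs came with the make-up of the pulled-down RNA was not tested.

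Set against the summed counts of the 15 homeostatic markers, Mertk, Gas6 and Axl were higher in iPKR vehicle than in TRAP libraries. On the log2 scale Mertk stood at -6.48 ± 0.12 in TRAP and -5.29 ± 0.27 in iPKR vehicle libraries (SD), Gas6 at -6.99 ± 0.24 and -5.17 ± 0.37, and Axl at -8.86 ± 1.12 and -6.50 ± 0.64. Pros1 stood at -6.32 ± 0.37 and -6.21 ± 0.52 on this scale, a gap smaller than either spread. In this comparison the fall of these members in CPM was thus not larger than that of the summed microglial markers. Among 5xFAD mice the gaps were smaller: Mertk stood at -6.45 ± 0.15 in 5xFAD TRAP and -6.19 ± 0.27 in 5xFAD iPKR libraries, Gas6 at -7.11 ± 0.14 and -6.26 ± 0.32, and Axl at -6.08 ± 0.42 and -5.31 ± 0.68. Axl in 5xFAD Eif2A libraries, without the construct, was at -5.34 ± 0.45, near its 5xFAD iPKR level.

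Tyro3 was also set against the 11 summed neuron markers. On that log2 scale its group means lay between -6.52 and -5.39 in the 7 groups, its SDs within them between 0.34 and 1.45 and its libraries between -7.78 and -4.9, whereas relative to homeostatic markers the group means ran from -10.63 to -3.56. Within the 5xFAD iPKR group Tyro3 did not move in step with these markers, at -7.78 and -7.73 in replicates 1 and 2, rich in neuron markers, and -5.28 and -5.23 in replicates 3 and 4. The 5xFAD TRAP group was split alike, at -7.72 and -7.77 in replicates 1 and 2 and -5.47 and -5.13 in replicates 3 and 4. Its neuron markers took 0.422% and 0.244% of counts in replicates 1 and 2, and 0.101% and 0.11% in replicates 3 and 4. In both groups replicates 1 and 2 were of batch 1 and replicates 3 and 4 of batch 2. The neuron-rich iPKR ASV replicate 3 was at -7.63.

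Axl relative to homeostatic markers was higher with 5xFAD on every background, at -6.08 ± 0.42 in 5xFAD TRAP, at -9.52 ± 0.64 and -5.34 ± 0.45 in Eif2A without and with 5xFAD, and at -6.93 ± 0.79 and -5.31 ± 0.68 in iPKR ASV and 5xFAD iPKR. Mertk on this scale was -6.48 ± 0.12, -6.45 ± 0.15, -6.39 ± 0.18 and -6.47 ± 0.21 in TRAP, 5xFAD TRAP, Eif2A and 5xFAD Eif2A, so it kept a near fixed ratio to these markers in the groups without the construct. These ratios are descriptions and were not tested.

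**Figure D3:**
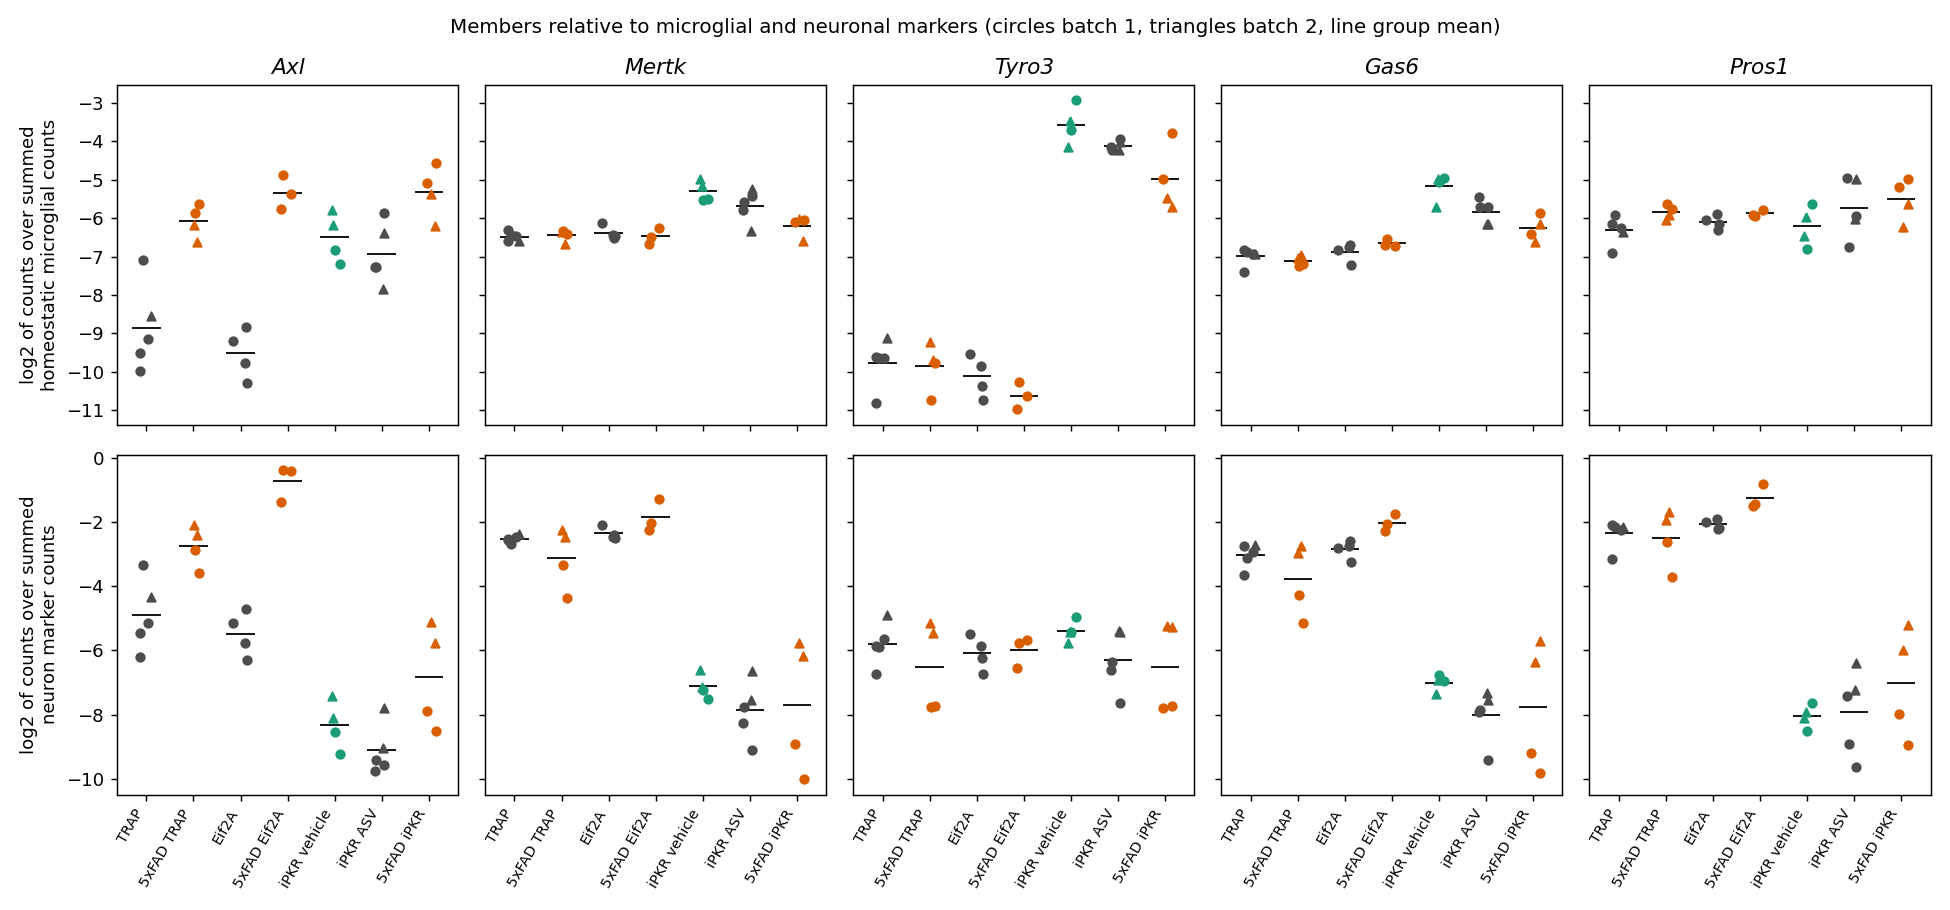
Log2 of each member's counts over the summed counts of 15 homeostatic microglial markers (top) and of 11 neuron markers (bottom), per library, with the symbols of the plot of CPM by group. Against neuron markers the Tyro3 group means lie between -6.52 and -5.39 and single libraries between -7.78 and -4.9, whereas against homeostatic markers the Mertk means stay between -6.48 and -6.39 in the groups without the iPKR construct.

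Ordered by group mean of TMM-scaled CPM, Axl was highest in 5xFAD Eif2A, then 5xFAD TRAP, then 5xFAD iPKR, then TRAP, Eif2A, iPKR vehicle and iPKR ASV. The first 3 did not overlap with one another on this scale, and from 5xFAD iPKR downward each group overlapped with the next. Per library total, 5xFAD Eif2A replicate 1 (339.7 CPM) was below 5xFAD TRAP replicate 1 (347.8 CPM). For Mertk, Gas6 and Pros1 the groups without the iPKR construct stood above those with it without overlap, and for Tyro3 below. Per library total this did not hold for Gas6, with Eif2A replicate 1 at 94.79 CPM and 5xFAD iPKR replicate 3 at 102.3 CPM. In Gas6 only 5xFAD Eif2A was separate from its neighbour within the upper set, and in Mertk and Tyro3 no neighbours within either set were separate. In Pros1 the 5xFAD groups without the construct were separate from TRAP and Eif2A, and 5xFAD iPKR from iPKR ASV, the last in TMM-scaled CPM but not per library total.

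Levels were compared between genes as CPM per kilobase of exon, with the unscaled library total as denominator, since the deposited RPKM values use the whole gene span, introns included, for most genes. By this scale the ligands and Mertk were alike in TRAP libraries, at 56.7 ± 10.1 for Gas6, 56.9 ± 12.6 for Pros1 and 46.9 ± 2.86 for Mertk (SD, n = 5). Axl, at 9.93 ± 8.43, and Tyro3, at 3.61 ± 1.5, were the minor receptors there. In 5xFAD TRAP mice Axl (56.2 ± 14.1) overlapped with Mertk (49.5 ± 5.77), and in 5xFAD Eif2A mice its lowest library (67.5) was above the highest Mertk library (55.9). On this scale Axl was therefore the receptor with the higher level in all 3 5xFAD Eif2A libraries, and Mertk in all 9 TRAP and Eif2A libraries. In iPKR vehicle libraries Tyro3 had the highest level of the receptors, at 30.5 ± 7.68, against 13.2 ± 3.57 for Mertk and 5.29 ± 2.70 for Axl.

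**Figure D4:**
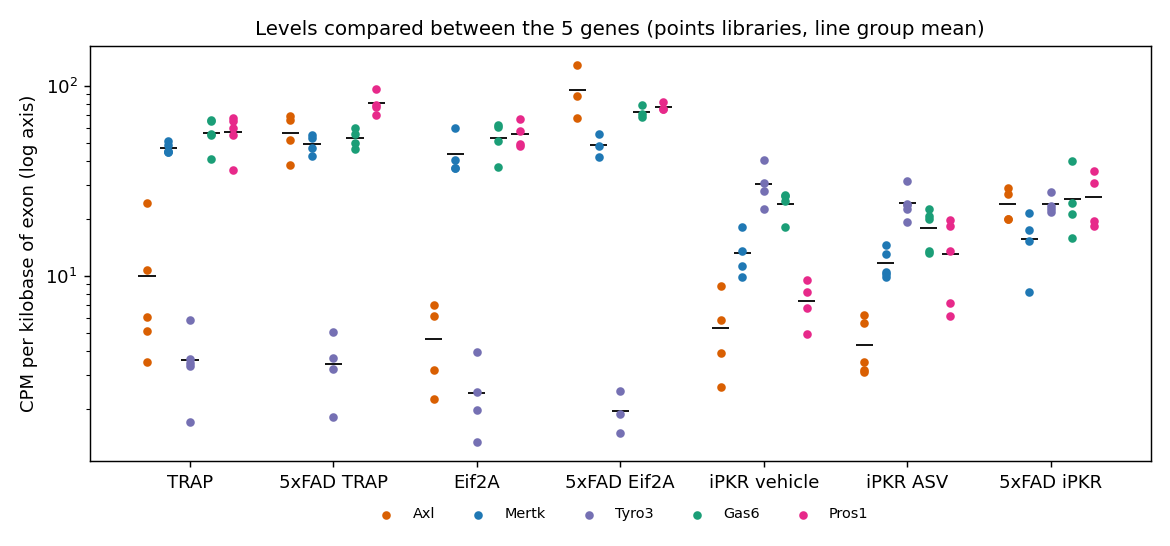
CPM per kilobase of exon (log axis) of the 5 members in each library, with a line at the group mean. Axl lies below Mertk in TRAP and Eif2A libraries and above it in 5xFAD Eif2A libraries (means 94.8 and 48.7), and the Tyro3 mean lies below those of the other members in every group without the iPKR construct.

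The other genes on the route from ligand to engulfment are read against the shares of all genes called with 5xFAD, 0.79% in TRAP, 3.1% in Eif2A and 1.72% in iPKR ASV mice. The ligands must be γ-carboxylated with vitamin K to bind phosphatidylserine, and Ggcx, the carboxylase, with Vkorc1 and Vkorc1l1, the vitamin K reductases, gave 0 of 3 calls in each 5xFAD comparison. Among 16 genes of receptor shedding and signalling, which include the sheddases Adam10 and Adam17, none was called in TRAP or Eif2A mice, and 1, Plcg2, rose in 5xFAD iPKR against iPKR ASV mice (1.37 ± 0.29 on the log2 scale, adjusted p = 0.009172). Adam10 and Adam17 did not pass in any of the 3.

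Among 22 tested genes for other receptors and bridging proteins of dead-cell uptake, 0, 3 and 1 were called higher with 5xFAD in TRAP, Eif2A and iPKR ASV mice, and none lower. In Eif2A mice these were Scarb1, a scavenger receptor (1.57 ± 0.33, adjusted p = 0.00564), the integrin subunit Itgb3 (1.68 ± 0.48, adjusted p = 0.04944) and the lipid receptor Trem2 (1.74 ± 0.50, adjusted p = 0.04983). Trem2 was also the 1 called in iPKR ASV mice (2.31 ± 0.48, adjusted p = 0.007922). In TRAP mice these 3 genes did not pass, though their ranges with and without 5xFAD did not overlap, as for 5.35% of all genes. There Trem2 stood at 679.9 to 1267 CPM without 5xFAD and 1789 to 2265 CPM with it. Itgb3 stood at 9.05 to 21.7 and 43.3 to 50.4 CPM, and Scarb1 at 19.97 to 26.1 and 39.5 to 70.7 CPM. Mfge8, a bridging protein like Gas6, and Itgb5, a subunit of its integrin receptor, passed in none of the 3 comparisons. Of 17 genes of the engulfment machinery, Cybb, a subunit of the phagocyte oxidase, was the 1 called, in Eif2A mice (3.30 ± 0.70, adjusted p = 0.005868). In TRAP mice Cybb did not pass, at 8.47 to 18.8 CPM without 5xFAD and 48.8 to 85.8 CPM with it.

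The list for signals on the dying cell (11 genes) also holds Anxa5 and Sirpa, which bind such signals and are not signals themselves. Anxa5, which binds phosphatidylserine, rose with 5xFAD on every background. It went from 110.9 to 135.8 CPM in TRAP to 218.8 to 500.2 CPM in 5xFAD TRAP mice (1.69 ± 0.24 on the log2 scale, adjusted p = 0.0001319). Its log2 fold change was 2.35 ± 0.27 in Eif2A (adjusted p = 3.06e-06) and 1.43 ± 0.24 in iPKR ASV mice (adjusted p = 0.000891). Sirpa, the receptor for the don't-eat-me signal Cd47, was also called higher in Eif2A (0.83 ± 0.22, adjusted p = 0.0301) and iPKR ASV mice (0.88 ± 0.20, adjusted p = 0.01402), and the eat-me signal Calr in iPKR ASV mice (1.20 ± 0.31, adjusted p = 0.03875). In Eif2A against TRAP, 5xFAD Eif2A against 5xFAD TRAP and iPKR ASV against vehicle, no gene of these 5 lists was called.

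In iPKR vehicle against TRAP, where construct and treatment cannot be told apart, genes of the same route were called in both directions. There 54.1% of all genes were called, 25.4% lower and 28.6% higher. Of the engulfment machinery 13 of 17 were called lower and 1 higher (Elmo2), with Rac1, the GTPase that drives the phagocytic cup, at -1.92 ± 0.19 (adjusted p = 5.627e-09), beside Dock2 and Rhog. Of the other receptors and bridging proteins 13 of 22 were called lower, among them Itgb5, Cd300a and Havcr2, and 2 higher. Itgb5 fell by 4.13 ± 0.40 on the log2 scale (adjusted p = 3.615e-09), whereas Mfge8 rose by 1.87 ± 0.43 (adjusted p = 0.0005688) and Adgrb1, a phosphatidylserine receptor abundant in neurons, rose by 2.58 ± 0.27 (adjusted p = 1.226e-08). Shedding and signalling genes were called lower in 8 of 16 and higher in 1, Ptk2, with Adam10 at -1.38 ± 0.22 and Adam17 at -1.38 ± 0.27. In the list for signals on the dying cell 3 genes were higher, including the neuronal chemokine Cx3cl1 (2.91 ± 0.48, adjusted p = 1.151e-05), and 3 lower. Vkorc1 was called lower (-2.70 ± 0.62, adjusted p = 0.0005975) and Vkorc1l1 higher (0.65 ± 0.27, adjusted p = 0.04003), and Ggcx did not pass. The median log2 fold changes of the first 4 lists were -1.46, -3.39, -0.99 and 0.01, beside 0.17 for all genes.

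Among 5xFAD mice with VEGF and ASV, 47.9% of all genes were called with the construct, 23% lower and 25% higher. Engulfment genes were called lower in 11 of 17 and higher in 2, other receptors and bridging proteins lower in 10 of 22 and higher in 3, and shedding and signalling genes lower in 11 of 16 and higher in 2. Itgb5 was at -2.83 ± 0.40 on the log2 scale (adjusted p = 2.613e-06), Rac1 at -1.72 ± 0.20 (adjusted p = 2.902e-07) and Mfge8 at 2.02 ± 0.45 (adjusted p = 0.0005736). In the list for signals on the dying cell 2 of 11 genes were called lower, Sirpa and Anxa5, and 4 higher, with Cx3cl1 at 3.09 ± 0.53 (adjusted p = 2.983e-05). Vkorc1 was the 1 gene of the carboxylation list called (-2.52 ± 0.66, adjusted p = 0.002488). The groups differed in microglial and neuron markers as well, with 14 of 15 homeostatic genes called lower and 11 of 11 neuron genes called higher.

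Over the 16 libraries without the construct, the genes whose log2 CPM followed each member most closely among 9136 genes were listed as a description, since the libraries share their 4 groups. Axl was followed by Lgals3bp (Pearson's r = 0.965), Cd83 (0.962), Gla (0.956), Lamp1 (0.955) and Cybb (0.955), of which Gla and Lamp1 encode lysosomal proteins. Pros1 was followed by Man2b2 (0.921), Slc44a2, Hsd17b12, Plxdc2 and Fuca2, where Man2b2 and Fuca2 encode glycosidases. Mertk was followed by Adpgk (0.893), Tmem185b, Cers2, Ctage5 and C5ar1, and Gas6 by Leprot (0.890), Tmem115, Tmem9b, Ddrgk1 and H2-DMb1. Tyro3 was followed by Hivep1 (0.919), Pkd1, Nefh (0.901), Sprn and Tnrc6c, and Nefh encodes a neurofilament subunit. No gene was among the 5 closest of more than 1 member.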

How the data were processed

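PolyA RNA from GFP immunoprecipitates was sequenced in 29 libraries of 7 groups, 1 mouse cortex each as far as the labels say, so that p-values measure the spread between these libraries. Per the submitters' processing notes, the authors' tools were featureCounts 2.0.3, HISAT2 2.2.1 and Trim Galore, with mm10 as the genome; the annotation, strandedness and handling of multiply matching reads are not given in the sources used here. The deposited tables hold raw counts and RPKM. The length behind the deposited RPKM was within 0.1% of the whole gene span for 86.4% of 21405 symbols found once in GENCODE M21, so levels between genes were computed from counts and annotated exon length.

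Counts were tested in R 4.3.3 with edgeR 4.0.16: filterByExpr by group (minimum count 10, minimum total 15), TMM factors, 1 robust quasi-likelihood fit with group, batch and labelled sex on all 29 libraries (20 residual degrees of freedom), two-sided, with Benjamini-Hochberg adjustment over all 16074 genes and a threshold of 0.05. Lists were described by counts and medians, and shares and ratios are per library total. The procedure was tested on simulated data. Named genes were the 5 members and, of each other list, up to 3 called genes with the smallest p per comparison and direction, with Ggcx, Adam10, Adam17, Mfge8 and Itgb5. The 5 closest genes to each member were taken by Pearson's r of log2 CPM (prior count 2) among genes with a mean of at least 3. Members and lists were chosen with earlier results of these data known.

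Replicate numbers recur across groups. Deviations of same-numbered libraries from their group means correlated at 0.11 to 0.22 in all 4 pairs of 5xFAD iPKR against 5xFAD TRAP, where same-numbered libraries also share the batch label, and not in all pairs of any other comparison. The numbers were taken to pair the libraries in that comparison only. Batch was not taken out of these deviations, so pairing and batch cannot be told apart there. No pair of libraries of a group were copies of each other (lowest chi-square per gene 4.22). Alternatives were RLE and upper-quartile factors, no filter or a minimum count of 30, leaving out the batch or sex term, fitting batch 1 by itself, fitting just the groups of a comparison, a replicate block, the 4 groups without iPKR, dropping the 3 libraries with most neuron markers, limma-voom and limma-trend on log2(RPKM + 0.01 or 0.1) with limma 3.58.1, DESeq2 1.42.0, and each library left out. Sex from Y-linked reads and batch 2 alone were added after the data were seen.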

Additional observations from a re-analysis of the deposited data

How the results depend on the processing

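The number of members called was 1, 1, 2, 0, 0, 0, 5 and 5 in 5xFAD TRAP against TRAP, 5xFAD Eif2A against Eif2A, 5xFAD iPKR against iPKR ASV, Eif2A against TRAP, 5xFAD Eif2A against 5xFAD TRAP, iPKR ASV against vehicle, iPKR vehicle against TRAP and 5xFAD iPKR against 5xFAD TRAP. With only the groups compared it was 0, 3 and 1 in the first 3 and 2 in the fifth; with the 4 groups without the construct it was 3 in the second and 1 in the fifth. With batch 2 alone it was 0 in the first and 1 in the third. In the third it was also 1 with limma-trend on RPKM at either pseudocount, where Pros1 was 1.09 (adjusted p = 0.07902) and 0.98 (adjusted p = 0.06848), and it ranged from 1 to 3 with each library left out. In the other comparisons leaving out a library gave ranges of 1 to 1, 1 to 1, 0 to 0, 0 to 0, 0 to 0, 4 to 5 and 5 to 5, in the order above. Fewer libraries entered the fit in several of these settings, and the cause of the other changes was not tested.

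With the replicate block, 5xFAD iPKR against iPKR ASV had 1 member called, since Pros1 at 1.19 ± 0.31 no longer passed (adjusted p = 0.06826). Same-numbered libraries there correlated at -0.50 to 0.10 with batch not taken out, and the numbers were not taken to pair them. The block changed no other call on a member.

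Direction turned in 3 differences that were near 0. Mertk in 5xFAD TRAP against TRAP (0.06) was -0.22 with batch 2 alone, -0.04 with no low-count filter, -0.06 and -0.05 with limma-trend, and -0.06 to 0.14 with each library left out, lowest without TRAP replicate 1; without 5xFAD TRAP replicate 2 it was -0.05. Gas6 there (below 0 before rounding) was 0.05 with the replicate block, 0.03 with batch 2 alone, 0.01 with limma-voom and -0.09 to 0.08 with each library left out. The difference between the 5xFAD effects on Axl in iPKR and TRAP mice (0.11) was -0.19 with batch 1 alone, 1.23 with batch 2 alone, -0.16 and -0.22 with limma-trend and -0.68 to 0.70 with each library left out. Axl in iPKR vehicle against TRAP did not pass with limma-trend (-0.82 and -0.75, adjusted p = 0.1402 and 0.1409), nor did Axl in 5xFAD iPKR against 5xFAD TRAP at the lower pseudocount (-1.12, adjusted p = 0.06283).

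Groups of 3 to 5 libraries and totals down to 1.662 M counts limit what could be seen. With SEs of 0.20 to 0.54 for the pairwise differences of members, differences under about 0.5 on the log2 scale were often within the error, and a miss does not show equal levels. The fits with and without the iPKR groups gave different calls for Gas6 and Pros1, with fold changes that moved little.

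Counts over all genes moved more than the members. With the 4 groups without the construct, edgeR called 958 genes in 5xFAD TRAP against TRAP in place of 127 and 2090 in 5xFAD Eif2A against Eif2A in place of 499. With RLE and upper-quartile factors the latter were 303 higher of 533 and 284 higher of 541, in place of 334 of 499, and in 5xFAD Eif2A against 5xFAD TRAP RLE gave 6 higher of 15 in place of 7 of 27. Over all alternatives 5xFAD iPKR against iPKR ASV had 10 to 739 in place of 277, 5xFAD Eif2A against 5xFAD TRAP 0 to 1095, iPKR ASV against vehicle 0 to 525 in place of 68, and iPKR vehicle against TRAP 3481 to 9620 in place of 8695.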
